A study of Mus musculus with 12 samples.

Results

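The 10 genes described here, Hormad1, Hsf2bp, Dazl, Ddx4, Sycp1, Sycp3, Mael, Asz1, Slc25a31 and Tex101, work in meiosis, in transposon defence or in other steps of germ cell development, and are known as genes that DNA methylation keeps silent in somatic cells. They were chosen by name, each was read from the brightest probe set that the array annotation assigns to it, and all 10 were measured among 19938 genes. The samples were 4 mouse iPS cell lines, that is, induced pluripotent stem cells, made by returning somatic cells to a state like that of embryonic stem cells. All lines came from embryonic fibroblasts of the strain C57BL/6J reprogrammed with 3 factors, which the labels do not name, and were kept in embryonic stem cell medium. The labels give LiPS-57 and LiPS-45 the competence for tetraploid complementation, in which cells placed in a tetraploid embryo form the whole fetus, and list LiPS-50 and LiPS-47 as lacking it. There were 3 biological repeats of every line, each on an Affymetrix array of its own, which makes 12 arrays. A line is a single isolate here, so a value that sets 1 line apart belongs to that line and not to a class of lines. The study asked how expression differs between lines with and without the competence.

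In the embryo, these genes become heavily methylated at CpG-rich promoters around implantation and stay shut in the soma, while primordial germ cells erase the methylation and open them. In pluripotent cells a second layer of repression acts on many of them, the PRC1.6 complex, which contains E2F6 and the MAX and MGA proteins and meets DNA at E2F sites and E-boxes. The proteins fall mainly into those of the meiotic chromosome, such as the axis protein Hormad1 and the synaptonemal complex proteins Sycp1 and Sycp3, and those of the piRNA pathway, such as Mael, Asz1 and Ddx4, which silence transposons with small RNAs. The arrays measured RNA only, so the methylation named above was not measured in these lines.

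The promoters of all 10 genes were found in the RefSeq promoter table (GRCm38.p6), and 6 are printed. They belong to genes that differ between the lines (Hormad1, Hsf2bp, Mael and, in 1 comparison, Dazl) and to genes that did not pass the test (Ddx4, Sycp3). Slc25a31, which passed against LiPS-45 and LiPS-57, is not printed and carried 1 E-box. Each run gives the 250 bases before the annotated start, 5′ to 3′ on the gene's strand. Capitals mark the E-box CACGTG and the E2F motif TCCCGC, the latter on either strand and thus also as GCGGGA.
Hormad1: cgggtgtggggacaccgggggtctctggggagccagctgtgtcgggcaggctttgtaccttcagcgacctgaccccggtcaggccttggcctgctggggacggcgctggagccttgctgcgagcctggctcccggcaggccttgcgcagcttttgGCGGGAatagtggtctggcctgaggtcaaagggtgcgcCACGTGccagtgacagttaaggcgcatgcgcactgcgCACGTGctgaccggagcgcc
Hsf2bp: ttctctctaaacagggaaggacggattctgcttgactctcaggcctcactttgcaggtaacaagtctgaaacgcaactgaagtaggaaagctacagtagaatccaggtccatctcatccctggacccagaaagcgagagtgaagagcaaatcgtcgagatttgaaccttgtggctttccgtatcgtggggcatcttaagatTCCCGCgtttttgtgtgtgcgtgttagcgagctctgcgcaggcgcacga
Mael: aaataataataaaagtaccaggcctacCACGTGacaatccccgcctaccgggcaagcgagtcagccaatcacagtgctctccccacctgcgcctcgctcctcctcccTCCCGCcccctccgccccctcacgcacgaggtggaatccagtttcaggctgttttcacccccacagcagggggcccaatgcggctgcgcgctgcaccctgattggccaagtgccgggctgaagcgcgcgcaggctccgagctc
Ddx4: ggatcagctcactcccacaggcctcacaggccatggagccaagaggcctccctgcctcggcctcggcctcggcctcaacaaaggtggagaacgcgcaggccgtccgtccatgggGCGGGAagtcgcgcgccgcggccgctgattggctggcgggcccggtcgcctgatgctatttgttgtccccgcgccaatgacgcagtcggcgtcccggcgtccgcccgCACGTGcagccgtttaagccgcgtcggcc
Sycp3: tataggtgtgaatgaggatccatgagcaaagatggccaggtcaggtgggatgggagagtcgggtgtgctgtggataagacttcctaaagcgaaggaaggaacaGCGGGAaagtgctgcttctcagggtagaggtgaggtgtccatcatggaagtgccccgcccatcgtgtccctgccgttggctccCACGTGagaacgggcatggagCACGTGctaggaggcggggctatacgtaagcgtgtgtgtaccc
Dazl: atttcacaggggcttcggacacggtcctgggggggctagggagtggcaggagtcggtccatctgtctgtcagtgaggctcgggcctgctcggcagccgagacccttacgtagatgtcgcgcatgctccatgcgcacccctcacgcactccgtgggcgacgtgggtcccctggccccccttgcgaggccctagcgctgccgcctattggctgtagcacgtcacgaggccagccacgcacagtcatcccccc
The windows lie at chr3:95559427-95559676 on the plus strand (Hormad1), chr17:32034509-32034758 on the minus strand (Hsf2bp), chr1:166238745-166238994 on the minus strand (Mael), chr13:112652311-112652560 on the minus strand (Ddx4), chr10:88459337-88459586 on the plus strand (Sycp3) and chr17:50293621-50293870 on the minus strand (Dazl). The E-box was present in 6 of the 10 windows, against 6.02% of 32851 windows of the same length. The E2F motif was present in 5 of 10, against 16.9% of all windows, and 4 of 10 held both motifs, against 1.45%. No match of one motif overlapped a match of the other in the 10 windows. Hormad1 carried 2 E-boxes, of which the nearer began 20 bases before the start, and 1 E2F motif. Hsf2bp carried the E2F motif alone, 49 bases before the start. Ddx4 and Sycp3 carried both motifs as well, so that the motifs were found in genes that differed between the lines and in genes that did not pass the test. Dazl, Asz1 and Tex101 carried neither. All 10 windows were richer in CpG sites, the dinucleotide that is methylated, than the median window, which had 6: the counts ran from 12 in Sycp3 and 14 in Hsf2bp and Tex101 to 31 in Ddx4. Both motifs contain a CpG, and the 32851 windows were not matched for CpG count, so the motif shares are not compared like for like. Matches are descriptions of the letters in these windows and not binding sites.

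LiPS-50 stood apart from the other lines across the array. The correlation of log2 values between a LiPS-50 array and an array of another line lay between 0.990 and 0.993, against 0.995 to 0.997 between arrays of the 3 other lines. The summed intensity of 12 pluripotency markers was 22014 to 22621 in the LiPS-50 arrays and 22110 to 23225 in the others, which overlap. Their median log2 value per array did not overlap. It was 10.02 to 10.08 in LiPS-50, 10.29 to 10.35 in LiPS-47 and 10.35 to 10.38 in both LiPS-45 and LiPS-57. The LiPS-50 arrays lay below all 9 others for 5 markers and above them for 3 (9.54% and 8.81% of all probe sets, 2135 and 2051 of all 19938 genes). Of these markers 2 were called higher and 2 lower in LiPS-50 than in each other line, against 6.75% and 5.38% of all genes. Their median difference was 0.12 from LiPS-47, 0.030 from LiPS-45 and -0.043 from LiPS-57. Of 20 fibroblast and feeder cell markers 19 were higher in LiPS-50 than in each other line (6.75% of all genes). Their summed intensity was 28351 to 31855 in the LiPS-50 arrays, against 17905 to 22077 in LiPS-47, 20896 to 24450 in LiPS-45 and 21003 to 22429 in LiPS-57. The dimmest of them, the proteoglycan gene Lum, had line means of 4.37 to 4.61 in the 3 other lines and 5.35 in LiPS-50. In cell populations such as these, more cells of a type and more RNA per cell cannot be told apart. Calls higher in LiPS-50 against all 3 other lines made up 33.0% of the 739 genes of the X chromosome and 5.76% of 19106 autosomal genes. None of the 10 germ line genes is X-linked. The part of the fibroblast and X-linked signals in the differences below was not tested.

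All levels below are log2(intensity + 1), and differences are differences of that quantity, so the changes of dim genes are understated. Adjusted p-values are from limma with Benjamini-Hochberg adjustment over all 28939 probe sets, and a gene is called at an adjusted p under 0.05. Intensities of different probe sets are not on a common scale, so levels are compared between lines and not between genes.

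LiPS-50 had more RNA of 3 of the 10 genes than each of the other 3 lines: Hormad1, Hsf2bp and Mael. Without single cultures this count was 2 to 4, and under the other alternatives it was 2 to 3. Across all probe sets 5.86% were higher in LiPS-50 in the same 3 comparisons, and across the 19938 genes 6.75%. None of the 10 was lower in LiPS-50 in all 3 comparisons (4.57% of all probe sets, 5.38% of all genes). In the separate comparisons 3 of 10 were higher than in LiPS-47 (8.48% of all probe sets), 4 of 10 than in LiPS-45 (8.18%) and 5 of 10 than in LiPS-57 (8.16%). Among the 19938 genes, each read like the 10 from its brightest probe set, these shares were 9.84%, 9.59% and 9.32%. The count against LiPS-45 was 2 without LiPS-45 replicate 1, 2 or 3, without LiPS-50 replicate 1 or 3, and under 4 other alternatives. No gene of the 10 was lower in any of the 3 comparisons, against 7.31%, 8.3% and 7.48% of all probe sets and 8.44%, 9.10% and 8.59% of all genes. In either direction 15.8%, 16.5% and 15.6% of all probe sets were called. The LiPS-50 arrays lay above all 9 others for 3 of the 10 genes (8.81% of all probe sets) and below them for 0 of 10 (9.54%). Among the 19938 genes they lay above for 2051 and below for 2135. The 3 comparisons share the LiPS-50 arrays and are not independent of each other. The median difference over the 10 genes was 0.23 against LiPS-47, 0.28 against LiPS-45 and 0.34 against LiPS-57, whereas the medians over all 19938 genes were -0.0083, 0.013 and 0.0068. The plot of the 10 genes by array shows how unevenly this was spread among them.

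**Figure D1:**
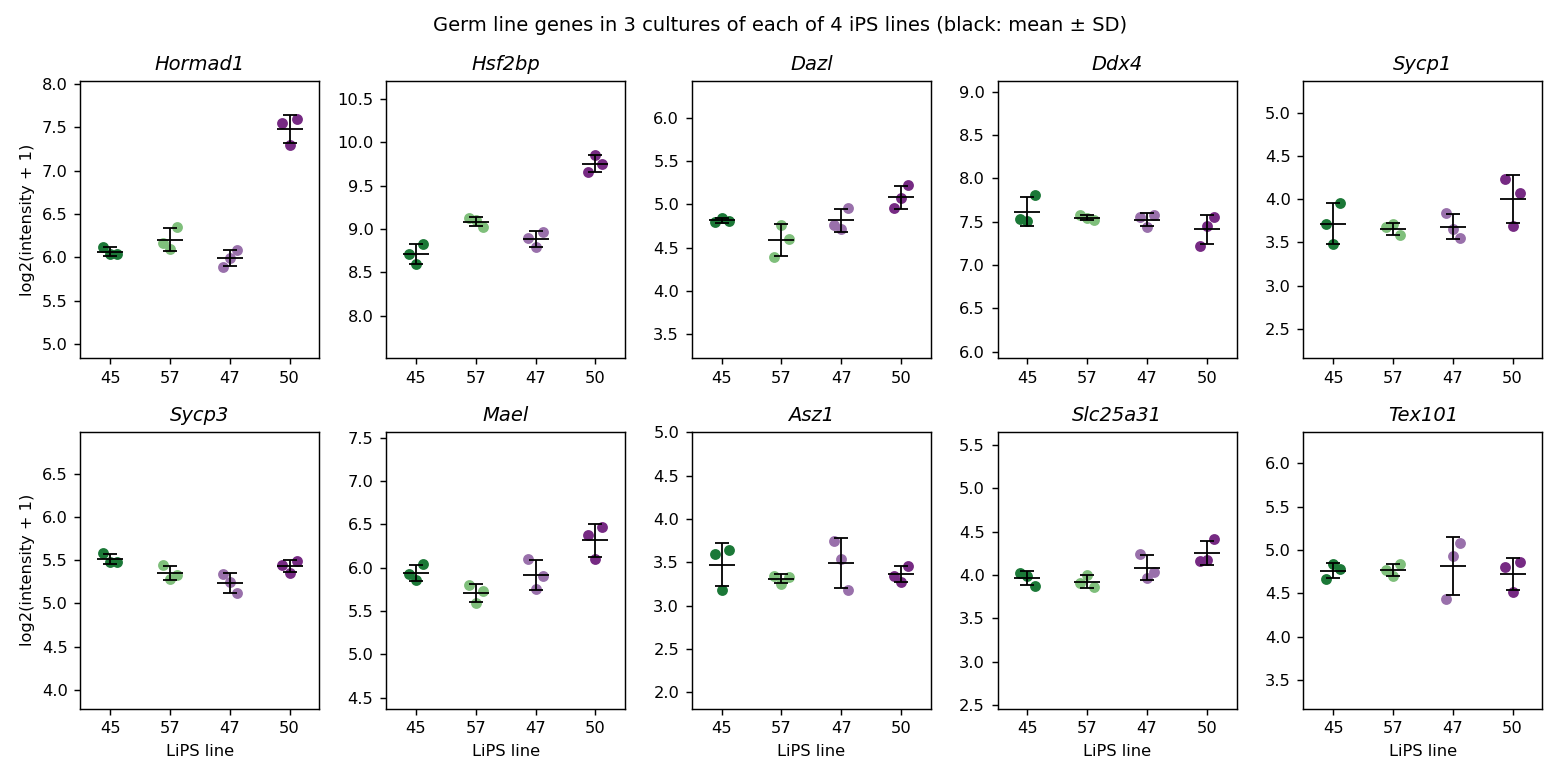
Level of each of the 10 germ line genes, log2(intensity + 1) on the vertical axis, in the 3 cultures of each line (points; black bars are the mean ± SD), with the same span of 3.2 log2 units in every panel. Hormad1 and Hsf2bp separate LiPS-50 clearly from the 9 other arrays, Mael narrowly, and the other panels overlap.

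Hormad1, a HORMA domain protein of the meiotic chromosome axis, showed the largest difference of the 10. Its levels were 7.56, 7.30 and 7.59 in LiPS-50, against 5.89, 6.00 and 6.08 in LiPS-47, 6.12, 6.04 and 6.03 in LiPS-45 and 6.17, 6.10 and 6.35 in LiPS-57. Every LiPS-50 culture lay above all 9 others, while the 3 other lines lay close together. LiPS-50 was 2.81-fold higher than LiPS-47 (log2 difference 1.49, SE 0.0920, adjusted p = 9.87e-07), 2.67-fold higher than LiPS-45 (adjusted p = 1.19e-06) and 2.42-fold higher than LiPS-57 (adjusted p = 3.31e-06).

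A second probe set that the annotation assigns to Hormad1, 10536427, differed more. It read 6.61, 6.60 and 7.04 in LiPS-50, but between 4.10 and 4.80 in the 9 other arrays. The differences were 2.32 against LiPS-47 (SE 0.156, adjusted p = 1.59e-06), 2.19 against LiPS-45 (adjusted p = 2.47e-06) and 2.46 against LiPS-57 (adjusted p = 1.28e-06). This probe set was dim in the 3 other lines, and no fold is given against them. By its number this probe set falls between those of Phf14 and Tmem106b on chromosome 6, whereas Hormad1 lies on chromosome 3. Whether it reads Hormad1 itself or a related copy was not tested, and the values of the brighter probe set do not depend on it.

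Hsf2bp, which binds the heat shock factor HSF2 and takes part in meiotic recombination together with BRCA2, was next in size. It was measured at 9.66, 9.85 and 9.75 in LiPS-50, at 9.13, 9.10 and 9.03 in LiPS-57, at 8.90, 8.79 and 8.96 in LiPS-47 and at 8.71, 8.60 and 8.83 in LiPS-45. The LiPS-50 cultures again lay above all others, and here the LiPS-57 cultures also lay above those of LiPS-47 and LiPS-45 without overlap. LiPS-50 exceeded LiPS-47 by 1.83-fold (difference 0.87, SE 0.0777, adjusted p = 1.63e-05), LiPS-45 by 2.06-fold (adjusted p = 3.56e-06) and LiPS-57 by 1.59-fold (adjusted p = 1.49e-04). LiPS-57 exceeded LiPS-45 by 0.37 (SE 0.0777), which did not pass the test (adjusted p = 0.107). That difference passed with an intensity trend in the prior (adjusted p = 0.0106), with a pseudocount of 16 (0.0449) and with dim probe sets left out (0.0477).

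The synaptonemal complex genes Sycp3 and Sycp1 did not pass the test. Sycp3, a component of the lateral elements of the synaptonemal complex, was measured at 5.44, 5.36 and 5.49 in LiPS-50, 5.59, 5.48 and 5.48 in LiPS-45, 5.44, 5.28 and 5.32 in LiPS-57 and 5.34, 5.24 and 5.12 in LiPS-47. The cultures of LiPS-50 overlapped those of LiPS-45 and LiPS-57, and only those of LiPS-47 lay below. The difference of LiPS-50 was 0.20 from LiPS-47 (95% interval 0.035 to 0.36, adjusted p = 0.101), -0.087 from LiPS-45 (adjusted p = 0.502) and 0.080 from LiPS-57 (adjusted p = 0.565). Sycp1, which forms the transverse filaments between the lateral elements, was measured at 4.23, 3.69 and 4.07 in LiPS-50, against 3.48 to 3.95 in LiPS-45, 3.58 to 3.71 in LiPS-57 and 3.55 to 3.84 in LiPS-47. LiPS-50 replicate 2 lay among the other lines, while replicates 1 and 3 lay above them. The 3 differences of Sycp1 ran from 0.28 to 0.34 (adjusted p = 0.136 to 0.211), and without LiPS-50 replicate 2 they were 0.47, 0.44 and 0.50 and passed (adjusted p = 0.0321, 0.0458 and 0.0264 for LiPS-47, LiPS-45 and LiPS-57).

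Among the 3 piRNA pathway genes, Mael alone was higher in LiPS-50. Mael, a protein of the germ granules needed for transposon silencing, was measured at 6.38, 6.10 and 6.47 in LiPS-50, 5.93, 5.86 and 6.04 in LiPS-45, 6.10, 5.75 and 5.91 in LiPS-47 and 5.80, 5.59 and 5.74 in LiPS-57. The lowest LiPS-50 culture stood barely above the highest of LiPS-47. LiPS-50 was 1.32-fold higher than LiPS-47 (difference 0.40, SE 0.109, adjusted p = 0.0263), 1.30-fold higher than LiPS-45 (adjusted p = 0.0347) and 1.52-fold higher than LiPS-57 (adjusted p = 0.00267). The call against LiPS-57 was kept under all alternatives tried, but those against LiPS-47 and LiPS-45 were lost under 7 and 9 of 21. Among these were median centring (adjusted p = 0.0521 and 0.0771) and quantile normalization (0.0501 and 0.0772). Without LiPS-50 replicate 3 they were 0.106 and 0.128, and without LiPS-50 replicate 1 they were 0.0889 and 0.106. The calls were lost as well without LiPS-47 replicates 2 and 3 (0.101 and 0.0713) and without LiPS-45 replicates 1, 2 and 3 (0.0855, 0.107 and 0.0505), each for its own line.

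Ddx4, the mouse form of the RNA helicase Vasa, did not pass the test in any comparison. Its levels were 7.22, 7.45 and 7.56 in LiPS-50, 7.53, 7.51 and 7.81 in LiPS-45, 7.57, 7.54 and 7.52 in LiPS-57 and 7.56, 7.44 and 7.58 in LiPS-47, and all lines overlapped. LiPS-50 lay lower by 0.11, 0.21 and 0.13 than LiPS-47, LiPS-45 and LiPS-57 in the mean, with adjusted p-values of 0.538, 0.185 and 0.437. The 95% intervals of these differences reached from -0.32 to 0.10, from -0.42 to 0.0045 and from -0.35 to 0.076, all below the 1.28 to 1.49 measured for Hormad1. Asz1, an ankyrin repeat protein that tethers piRNA factors at mitochondria, was measured at 3.34, 3.28 and 3.46 in LiPS-50, 3.59, 3.18 and 3.65 in LiPS-45, 3.34, 3.25 and 3.33 in LiPS-57 and 3.75, 3.54 and 3.18 in LiPS-47. All lines overlapped, and the differences of LiPS-50 ran from -0.13 to 0.053 (adjusted p = 0.632 to 0.877).

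Dazl, an RNA-binding protein that controls translation in germ cells, was measured at 4.96, 5.07 and 5.23 in LiPS-50, 4.80, 4.85 and 4.80 in LiPS-45, 4.76, 4.72 and 4.96 in LiPS-47 and 4.40, 4.76 and 4.60 in LiPS-57. It was higher in LiPS-50 than in LiPS-57 by 0.50 (1.41-fold, SE 0.0998, adjusted p = 0.00509). Against LiPS-47 and LiPS-45 the difference was 0.27 in each case and did not pass (adjusted p = 0.0944 and 0.0927), and the LiPS-50 cultures overlapped those of LiPS-47. Slc25a31, the ADP/ATP carrier of male germ cells, was measured at 4.16, 4.18 and 4.42 in LiPS-50, 4.24, 3.97 and 4.03 in LiPS-47, 4.03, 3.99 and 3.87 in LiPS-45 and between 3.86 and 4.0 in LiPS-57. It passed against LiPS-57 (difference 0.33, 1.26-fold, adjusted p = 0.0262) and LiPS-45 (0.29, 1.22-fold, adjusted p = 0.0464), but not against LiPS-47 (0.17, adjusted p = 0.255). The call against LiPS-45 was lost under 17 of 20 alternatives (adjusted p = 0.0528 to 0.169 where lost) and that against LiPS-57 under 5: median centring (0.0637), quantile normalization (0.0543) and the fits without LiPS-50 replicate 3 (0.104) and without LiPS-57 replicates 1 and 3 (0.0760 and 0.0908). Tex101, a surface glycoprotein of male germ cells, was measured at 4.80, 4.52 and 4.86 in LiPS-50, 4.67, 4.84 and 4.78 in LiPS-45, 4.77, 4.70 and 4.84 in LiPS-57 and 4.44, 4.93 and 5.08 in LiPS-47. Its lines overlapped throughout, and its differences lay between -0.090 and -0.034 (adjusted p = 0.763 to 0.915).

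**Figure D2:**
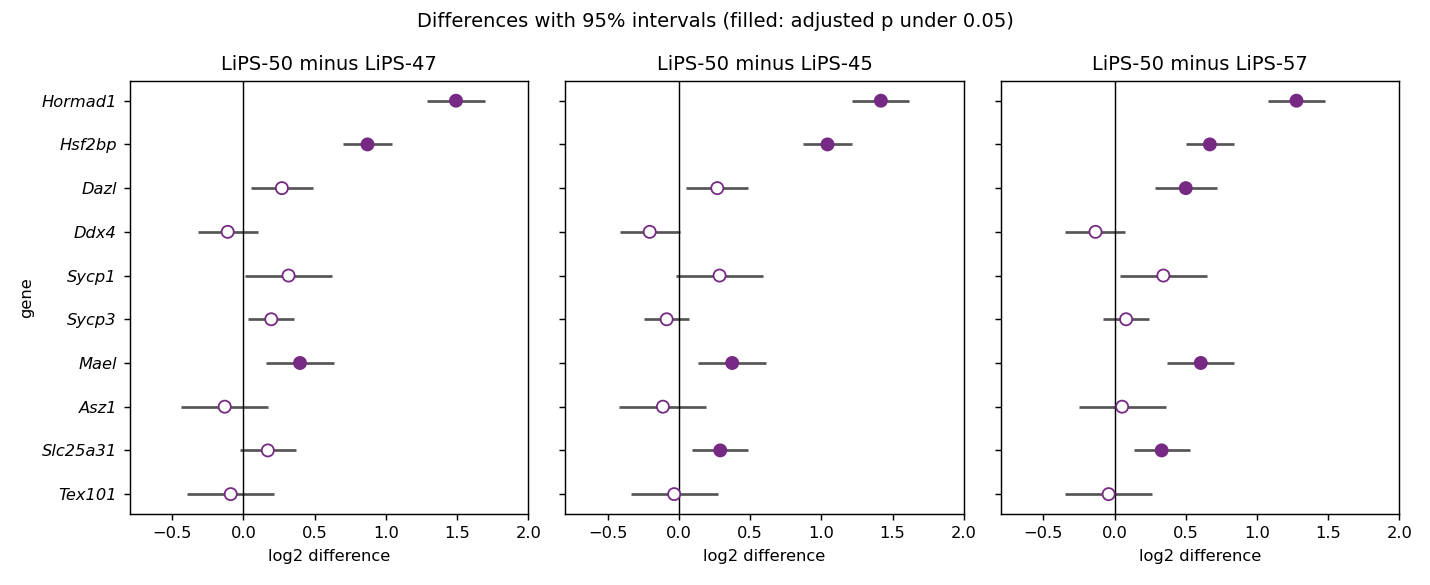
Log2 difference of LiPS-50 from each other line (horizontal axis, 1 panel per line) for the 10 germ line genes (vertical axis), with 95% intervals from limma; filled points have an adjusted p under 0.05. Hormad1 lies between 1.28 and 1.49 and Hsf2bp between 0.67 and 1.04 in the 3 panels, while Ddx4, Asz1 and Tex101 lie near 0.

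Some of the genes were dim. Among 1190 olfactory and vomeronasal receptor genes, which these cells are not known to use, the means over 12 arrays ran from 2.80 at the 5th percentile to 4.83 at the 95th. The means of Dazl, Sycp1, Asz1, Slc25a31 and Tex101 lay below that upper value. In LiPS-50 alone 4 of the 10 did, since Dazl had a mean of 5.09 there. Probe sets differ in scale, so this places the genes among dim probe sets and does not show whether their RNA was present. Of these receptor genes 0.168% were called higher in LiPS-50 in all 3 comparisons.

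The other 3 lines were close to each other. None of the 10 genes was called between LiPS-45 and LiPS-57 (0.266% of all probe sets), LiPS-45 and LiPS-47 (0.0622%) or LiPS-57 and LiPS-47 (0.159%). At an unadjusted p under 0.05 there were 3, 2 and 3 of 10, against 8.01%, 8.93% and 6.89% of all probe sets. The largest differences were those of Hsf2bp, given above, and of Sycp3, which was 0.28 lower in LiPS-47 than in LiPS-45 (SE 0.0735, adjusted p = 0.252). In a test of any difference among the 4 lines 4 of 10 genes passed (14.9% of all probe sets, 16.8% of all genes): Hormad1 (adjusted p = 1.67e-06), Hsf2bp (1.35e-05), Mael (0.0118) and Dazl (0.0251). That count was 2 without LiPS-50 replicate 3, where 2892 of 28939 probe sets passed.

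By competence, no gene of the 10 was called. With the line treated as a random block, limma called none of the 28939 probe sets (0%), while 7.69% had an unadjusted p under 0.05. Of the 10 genes 4 had an unadjusted p under 0.05, namely Slc25a31, Dazl, Mael and Hsf2bp, and the adjusted p-values of all 10 lay between 0.648 and 0.993. Hormad1 was lower in the competent lines by 0.60 (SE 0.292, adjusted p = 0.653) and Hsf2bp by 0.42 (SE 0.190, adjusted p = 0.648). The fit takes 1 correlation within lines, 0.183, for all probe sets. Where lines of a class differ more than that, as for Hormad1 and Hsf2bp, the SE and p-values come out too small. With LiPS-50 left out, the competent lines were instead 0.15 (Hormad1) and 0.016 (Hsf2bp) above LiPS-47. When the contrast of line means was tested against the variation among repeats alone, 3 of 10 genes and 1789 of 28939 probe sets were called. The 3 were Hormad1, Hsf2bp and Mael (limma adjusted p = 2.35e-04, 8.40e-04 and 0.0454). That test does not count lines as the unit of replication.

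Other meiosis genes included Hormad2 and Smc1b among those higher in LiPS-50. Of 27 measured genes of this list 5 were higher in LiPS-50 than in each other line and 0 lower, and the median difference from LiPS-47 was 0.058. Over all genes 6.75% were higher and 5.38% lower in this sense. Hormad2, the second HORMA domain protein of the chromosome axis, was measured at 7.07 ± 0.0451 in LiPS-50, 5.39 ± 0.0312 in LiPS-47, 5.30 ± 0.0578 in LiPS-57 and 5.31 ± 0.0968 in LiPS-45 (SD, n = 3 each), and was 3.21-fold higher than in LiPS-47 (limma adjusted p = 1.38e-08). Smc1b, the meiotic cohesin subunit, was at 5.79 ± 0.321 in LiPS-50 and at 4.06 ± 0.226 in LiPS-47, where the probe set was dim (SD, n = 3 each; difference 1.74, limma adjusted p = 2.91e-05). The differences were smaller for Majin, which joins telomeres to the nuclear envelope (1.43-fold, adjusted p = 0.0197), the recombinase Dmc1 (1.30-fold, adjusted p = 0.00373) and the central element gene Syce1 (1.24-fold, adjusted p = 0.00458). Majin kept its call against all 3 lines under 12 of 20 alternatives. It was lost with quantile normalization, with each pair of lines fitted alone and without LiPS-47 replicate 3, LiPS-50 replicate 2 or 3, or any LiPS-57 culture. The other 4 genes kept theirs under all alternatives tried.

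In the piRNA pathway, of 17 measured genes besides Mael, Asz1 and Ddx4, 4 were higher in LiPS-50 than in each other line and 1 was lower, against 6.75% and 5.38% of all genes. Gpat2, a mitochondrial acyltransferase family protein of piRNA formation, was 1.76-fold higher than in LiPS-47 (adjusted p = 7.91e-04), Tdrd12 1.42-fold (adjusted p = 7.16e-04), Tdrd7 1.37-fold (adjusted p = 0.0159) and Tex19.1 1.20-fold (adjusted p = 0.0126). Tdrd5, like Tdrd7 and Tdrd12 a Tudor domain protein, was lower in LiPS-50, at 5.92 ± 0.167 against 6.89 ± 0.295 in LiPS-47, 6.75 ± 0.221 in LiPS-57 and 6.78 ± 0.0830 in LiPS-45 (SD, n = 3 each). Its difference from LiPS-47 was -0.98 (limma adjusted p = 7.01e-04). Tdrd7 lost its call in at least 1 comparison without LiPS-45 replicate 3, LiPS-47 replicate 3, LiPS-57 replicate 3 or LiPS-50 replicates 1 and 3, and Tex19.1 without LiPS-47 replicate 3, without LiPS-50 replicate 1 and with each pair of lines fitted alone.

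Of 8 measured regulators of early germ cells 2 were higher and 1 lower in LiPS-50 than in each other line, against 6.75% and 5.38% of all genes. Prdm14 (1.66-fold against LiPS-47, adjusted p = 0.00116) and Tfap2c (1.16-fold, adjusted p = 0.0190), transcription factors of primordial germ cell specification and of pluripotent cells, were the higher ones. Prdm1, a repressor that germ cell precursors need, was higher than in LiPS-47 (adjusted p = 0.00906) and LiPS-45 (0.00812) but not called against LiPS-57 (0.326), and Dppa3, a gene of germ cells and pluripotent cells, was lower than in LiPS-57 only (0.0150). The receptor gene Kit was lower, 1.44-fold against LiPS-47 (adjusted p = 2.13e-04). Tfap2c kept its calls under 11 of 21 alternatives and lost them, among others, with median centring, with the replicate block and without LiPS-47 replicate 1 or 2, LiPS-50 replicate 1 or 2, or any LiPS-57 culture.

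Among 24 measured genes of the repressive machinery, 4 were lower in LiPS-50 than in each other line and 1 was higher, against 5.38% and 6.75% of all genes. The lower ones were Dnmt3b and Dnmt3a, the DNA methyltransferases that set new methylation, Setdb1, an H3K9 methyltransferase, and Smchd1, a chromatin protein of the inactive X. Dnmt3b was measured at 10.26 ± 0.0580 in LiPS-50 and at 10.92 ± 0.0606 in LiPS-47 (SD, n = 3 each; 1.59-fold lower, limma adjusted p = 2.59e-05), Dnmt3a was 1.34-fold lower (adjusted p = 3.53e-04), Setdb1 1.28-fold (adjusted p = 0.00365) and Smchd1 1.29-fold (adjusted p = 0.00171). The X-linked H3K4 demethylase gene Kdm5c was 1.43-fold higher (adjusted p = 1.26e-04). The PRC1.6 genes Pcgf6, Mga, Max, L3mbtl2 and E2f6 were not called in any of the 3 comparisons (adjusted p = 0.233 to 0.958), while Tfdp1 was lower than in LiPS-57 (0.0455) and Cbx3 than in LiPS-45 (0.0445), both also PRC1.6 genes. Dnmt3l, the cofactor of Dnmt3a and Dnmt3b, was higher than in LiPS-47 (0.0112) and LiPS-57 (0.00231) but not called against LiPS-45 (0.454). In the separate comparisons 4, 6 and 6 of the 24 were lower than in LiPS-47, LiPS-45 and LiPS-57, against 8.44%, 9.10% and 8.59% of all genes. Not all of them are named here. The values of Rybp, Ring1, Rnf2, Wdr5, Hdac1 and Hdac2 are not given, so nothing is stated for PRC1.6 as a whole. The median difference of this list from LiPS-47 was -0.11. Tet1, Tet2 and Tet3, which oxidise methylated cytosine, had adjusted p-values of 0.114 to 0.943 in the 3 comparisons with LiPS-50 and were not called.

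**Figure D3:**
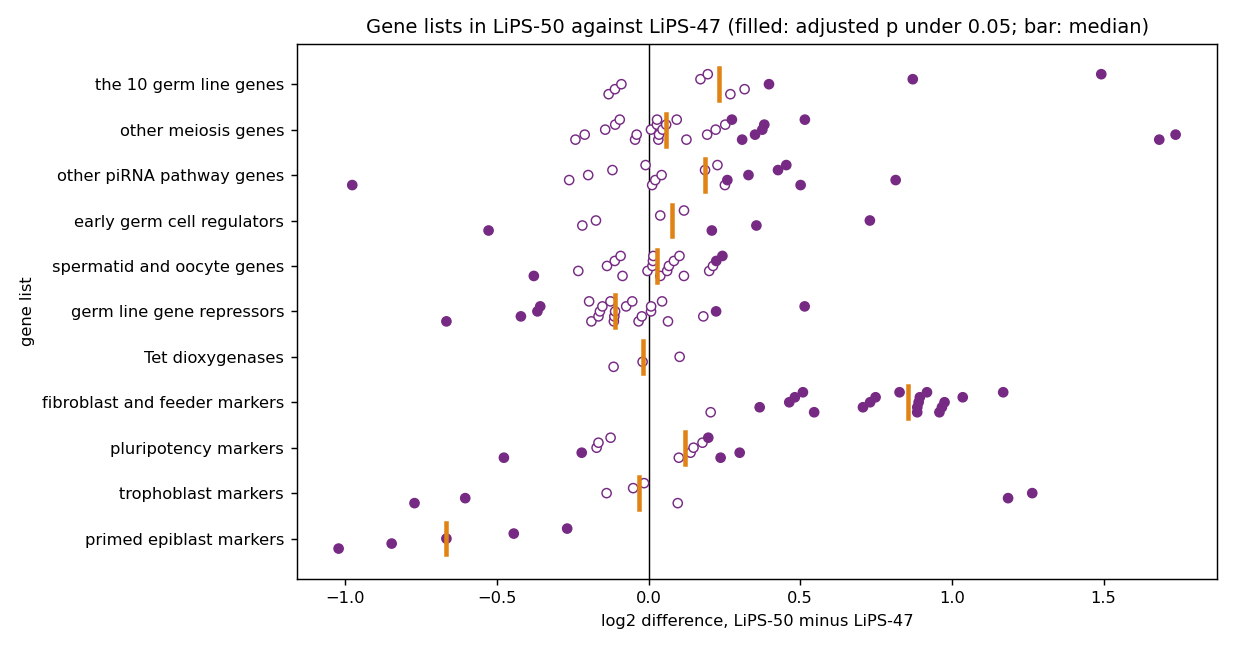
Log2 difference of LiPS-50 minus LiPS-47 (horizontal axis) for each measured gene of the 10 germ line genes and of 10 further lists (vertical axis; vertical jitter has no meaning); filled points have an adjusted p under 0.05 and orange bars are medians. The 10 germ line genes and the other meiosis genes hold a few genes far to the right, while their medians are 0.23 and 0.058. In the piRNA list Gpat2 lies to the right (0.81) and Tdrd5 to the left (-0.98). The spermatid and oocyte genes have a median of 0.027. The fibroblast and feeder markers lie to the right as a group with a median of 0.86.

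The genes whose pattern over the 12 arrays was most like the mean of the 10 germ line genes, among 142 genes whose line means spanned at least 1 log2 unit, were Trap1a (Pearson r = 0.960), Elobl (0.955), Mcf2 (0.952), Nlrp4f (0.946) and Egfl6 (0.946). All 5 had their highest line mean in LiPS-50; Trap1a, a tumour rejection antigen gene, was at 7.55 ± 0.105 there and between 6.38 and 6.39 in the means of the 3 other lines. For single genes the closest were 4930591A17Rik for Hormad1 (r = 0.984) and the homeobox gene Rhox9 for Hsf2bp (r = 0.979). For Tex101 and Asz1 the best were 0.265 and 0.491. The 12 points share 3 LiPS-50 arrays that stand apart, and Trap1a, Mcf2, Egfl6 and Rhox9 are X-linked, so these correlations are descriptions.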

How the data were processed

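RNA of 12 cultures was hybridised as biotin-labelled material, per the labels' protocols. The authors deposited 1 linear intensity per probe set and array; GCOS 1.4 is named in the submitters' processing notes, but no source used here names the probe summarisation, background correction or normalization. Of 35556 probe sets, 6617 numbered below the lowest annotated identifier were treated as controls and left out. A gene is represented by its brightest probe set by mean log2(value + 1); 19856 of 19938 genes matched the RefSeq table (GRCm38.p6) by identifier, the others keep the annotation's symbol. limma 3.58.1 in R 4.3.3 fitted 4 line means (lmFit, eBayes, two-sided, Benjamini-Hochberg over 28939 probe sets; 8 residual and 4.06 prior degrees of freedom). Competence used the line as a random block (consensus correlation 0.183). Tests between lines thus rest on how far repeats of a line differ, and the number of arrays limits the precision. No 2 arrays shared more than 0.607% of values.

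On simulated data for LiPS-47 against LiPS-50 with 28939 probe sets, 94.0% of 1.5-fold and 100% of 2-fold changes were recovered, and 12 of 208 calls were false. The simulation drew independent normal noise and changed far fewer probe sets than the 4568 called in the data. It checks the procedure and does not give the power for the 10 genes. The 10 genes, the further lists (27, 17, 8, 20, 24, 3 and, for cell types, 20, 12, 8 and 5 measured genes), the tests and the alternatives were chosen with earlier results of these data known. Named are all 10 genes, list members called against all 3 lines or among the 4 smallest p of a list, and the genes most alike in pattern. The alternatives are those of the closing section.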

Additional observations from a re-analysis of the deposited data

How the results depend on the processing

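Of 996 recomputed differences of the 10 genes, 931 kept direction and side of the threshold, 38 lost a call, 9 gained one and 18 turned sign while uncalled. Hormad1 and Hsf2bp kept their calls in the 3 comparisons with LiPS-50 under all 21 alternatives. The count of genes called between LiPS-45 and LiPS-50 fell from 4 to 2 with median centring, quantile normalization, the control probe sets included or the pair fitted alone, and was 2 to 4 without single cultures. Over all probe sets 4950 of 28939 were called with median centring, 4724 with quantile normalization and 3610 with the pair fitted alone. With the control probe sets included it was 4492 of 35556. The count for LiPS-57 and LiPS-50 fell from 5 to 3 with dim probe sets left out, where 5 of the 10 genes were tested. That fit called 5130 of 17363 probe sets, against 4527 of 28939 in the main fit. For LiPS-45 and LiPS-57 the count of genes rose from 0 to 1 (Hsf2bp) with that filter, with a pseudocount of 16 and with an intensity trend. These fits called 105 of 17363, 111 of 28939 and 132 of 28939 probe sets. The count among the 4 lines was 2 to 5 without single cultures, where 2855 to 4065 of 28939 probe sets passed. The competence count rose from 0 to 3 with only the spread between cultures as error, where 1789 of 28939 probe sets were called. Without LiPS-50 the competence difference turned sign for Hormad1 (0.15), Hsf2bp (0.016) and Sycp1 (0.0034). That of Tex101 turned with median centring (0.026) and quantile normalization (0.030), and lay between -0.083 and 0.057 without single cultures; that of Asz1 lay between -0.0934 and 0.029. Tex101 differences of LiPS-50 lay between -0.28 and 0.043 (LiPS-47), -0.100 and 0.069 (LiPS-45) and -0.108 and 0.061 (LiPS-57) without single cultures. The cause of these changes was not tested.

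Same-numbered cultures did not deviate together (correlation of deviations -0.169 to 0.121 over 18 pairs, above 0.1 in 4), so the numbers were not taken to pair the samples. With the replicate number as a block the counts against LiPS-50 were 3 (LiPS-47), 3 (LiPS-45) and 5 (LiPS-57) of 10. Over all probe sets 4257, 4506 and 4232 of 28939 were called.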

Other observations

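Of 20 measured spermatid and oocyte genes, such as those of protamines and the zona pellucida, 1 was higher in LiPS-50 than in each other line and 0 lower, against 6.75% and 5.38% of all genes. It was Zp3, a zona pellucida glycoprotein gene, which was 1.18-fold higher than in LiPS-47 (limma adjusted p = 0.0221) and kept its calls under 7 of 21 alternatives. It lost them, among others, with median centring, quantile normalization, without LiPS-45 replicate 2, LiPS-47 replicate 1 or 2, LiPS-50 replicate 1 or 2, or any LiPS-57 culture. The acrosomal protein gene Acrv1 was lower in LiPS-50 than in LiPS-47 by 0.38 (adjusted p = 0.0174) and than in LiPS-45 by 0.35 (adjusted p = 0.0259), but not called against LiPS-57 (adjusted p = 0.373).

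Markers of other lineages went in both directions. Of 8 trophoblast markers the transcription factor genes Ascl2 and Gata3 were higher in LiPS-50 than in each other line, by 2.40-fold and 2.27-fold against LiPS-47 (limma adjusted p = 2.46e-05 and 1.68e-04), and 0 were lower in all 3 comparisons (6.75% and 5.38% of all genes). The keratin genes Krt8 and Krt18 were lower than in LiPS-47 by 0.77 and 0.60 (adjusted p = 8.14e-04 and 3.60e-04), Krt8 also than in LiPS-45 (0.0437). The summed intensity of the 8 was 2278 to 2453 in LiPS-50, 3304 to 3953 in LiPS-47, 2647 to 2755 in LiPS-45 and 1913 to 2487 in LiPS-57. Their median log2 value per array was instead highest in LiPS-50, at 6.32 to 6.47. It was 5.74 to 5.86 in LiPS-47, 5.66 to 5.92 in LiPS-45 and 5.65 to 5.96 in LiPS-57. Of 5 primed epiblast markers 4 were lower in all 3 (5.38% of all genes), among them Fgf5 (1.80-fold lower than in LiPS-47, limma adjusted p = 9.41e-05). Dnmt3b is 1 of these 4 and was already counted among the lower genes of the repressive machinery. The relation of these lineage markers to the germ line genes was not tested.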
